A study of Mus musculus with 36 samples.

Results

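Th1 cells of 3 wild-type (WT) and 3 Ets1-SE-KO (KO) libraries are described here, 6 of the 36 libraries in the series. They were chosen by their titles, which name the Th1 fate and the genotype, and they belong to the first of 2 experiments on Th1 cells. The WT cells were from C57BL/6J mice. The KO strain, by its name, lacks a super-enhancer of the gene Ets1, a cluster of regulatory elements that act together. The sources used here do not give the extent of the deletion or the age and number of the animals. For both genotypes, naive CD4+ T cells were taken from spleen with negative-selection beads and grown for 6 days on plates coated with an antibody to CD3, with 10 ng/mL of IL-12, 1 ng/mL of IL-2 and soluble antibody to CD28. All 6 titles carry the same B number and differ in T number, and neither is explained. The labels do not tie the libraries to separate animals or cultures, and the p-values therefore refer to a spread among libraries that may be technical. Th2 libraries of the same experiment (3 WT and 3 KO, culture not given) and untransduced Th1 libraries of the second experiment (2 WT and 2 KO) are used only for comparison.

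Th1 cells are the CD4 helper T cells that secrete interferon gamma and help macrophages kill microbes inside cells. IL-12 acts through the transcription factor STAT4, and the factor T-bet, encoded by Tbx21, fixes the fate and drives the interferon gamma gene Ifng. Ets1 is a transcription factor abundant in lymphocytes, and it is known to act with T-bet in Th1 cells and to limit other fates.

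The 6 Th1 libraries held 8451125 to 10256407 gene counts each, and 7.40% to 8.49% of those came from mitochondrial genes. Levels below are in CPM, a gene's share of all gene counts of its library on a fixed scale, after TMM factors that correct for library composition. The defining markers fitted the label: Ifng was at 192 to 963 CPM and Tbx21 at 39.5 to 65.9 CPM in the Th1 libraries, against 0 to 2.41 and 2.14 to 6.33 CPM in the 6 Th2 libraries. The Th1 libraries also held Th2 RNAs, among them Gata3 at 95.4 to 355 CPM and Il13 at 66.3 to 377 CPM. Xist was high and the Y-linked genes were at 0 or 1 count in all 6, so the genotypes did not differ in sex. The share of reads that did not map was 46.05% to 47.61% in WT and 40.43% to 45.77% in KO libraries, and its part in the results below was not tested.

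In all, 462 of 12616 genes tested differed between KO and WT Th1 cells at an adjusted p under 0.05, which is 3.66% of the genes tested. Of these, 272 rose (2.16%) and 190 fell (1.51%). List counts below are to be read against these shares, and the lists were chosen with earlier results of these data known. The KO and WT libraries did not overlap for 449 of the 462 genes called, so lack of overlap adds little to a call. It was also a condition for the genes named by size of change. The share of all genes tested without overlap is not given here, so lack of overlap in a gene that was not called is description only. The median size of the log2 fold change was 0.61 among the genes that rose and 0.51 among those that fell, and 81 and 40 of them changed at least 2-fold. Over all genes tested the median log2 fold change was 0.00295. Of the 272 genes that rose, KO library 1 had the highest level of the 3 KO libraries for 185, KO library 2 for 33 and KO library 3 for 54. These genes were called through their KO levels, and the same share over all genes tested is not given here. The count of 462 depended most on 2 libraries. It was 226 without KO library 1 and 176 without WT library 1, and 352 to 469 with 1 of the other 4 left out. Without KO library 1, 115 of the 272 and 92 of the 190 were still called, and 76 and 58 were called whichever library was left out.

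**Figure D1:**
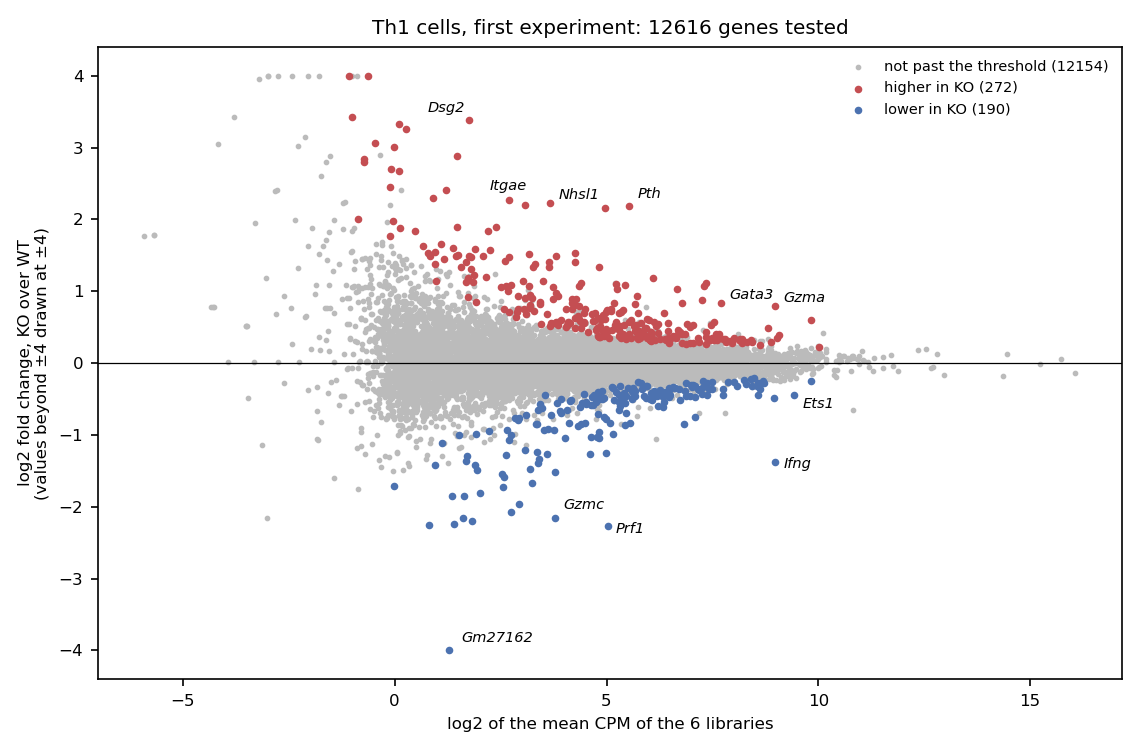
Log2 fold change of KO over WT in Th1 cells against the log2 mean CPM of the 6 libraries, 1 point a gene for 12616 genes. Red points are the 272 genes that rose, blue the 190 that fell and grey the rest. Values beyond 4 in either direction are drawn at 4, and the fitted value of Gm27162, which has no KO count, is no measure of its size. Prf1 lies at -2.27 and Ifng at -1.38.

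Ets1 RNA fell in KO Th1 cells without being lost, and a noncoding RNA downstream of it was not detected. Ets1 (chromosome 9, 32636221 to 32757820, plus strand, GRCm38) was at 738, 842 and 806 CPM in the WT libraries and at 592, 540.0 and 614 CPM in the KO libraries. The groups did not overlap, and the log2 fold change of KO over WT was -0.45 (SE 0.06, edgeR quasi-likelihood test, adjusted p = 0.000641). The noncoding gene Gm27162 (chromosome 9, 32904937 to 32928966, minus strand) had 37, 50 and 53 counts in the WT libraries and none in any KO library. Against 3 counts over the summed KO libraries, the upper limit that a count of 0 allows, Gm27162 was at least 45.9-fold lower in KO cells before TMM scaling (adjusted p = 2.86e-05). Both calls held with each of the 6 libraries left out in turn. Such limits cover counting error only.

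Other genes around Ets1 were not called. Fli1, an ETS factor gene beside Ets1 on chromosome 9 (32422204 to 32542861, minus strand), was at 64.5, 56.9 and 58.6 CPM in WT and 58.5, 57.4 and 62.9 CPM in KO libraries, which overlapped (log2 fold change -0.01, SE 0.08, adjusted p = 0.969). Within 3 Mb of Ets1, 23 genes were tested and 2 passed, Ets1 and Gm27162. Of the other 21, the 17 above 5 CPM had log2 fold changes of -0.40 to 0.21. The lowest adjusted p among the 21 was 0.0662, for the sorting nexin gene Snx19. Among other members of the ETS family, Ets2 rose (12.1, 16.3 and 12.6 CPM in WT, 17.99, 20.2 and 20.7 CPM in KO, adjusted p = 0.0221), a call lost without WT library 1, WT library 3, KO library 2 or KO library 3 (adjusted p 0.0712 to 0.14). Of the 17 members of the family tested, no more than these, Ets1 and Ets2, passed.

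**Figure D2:**
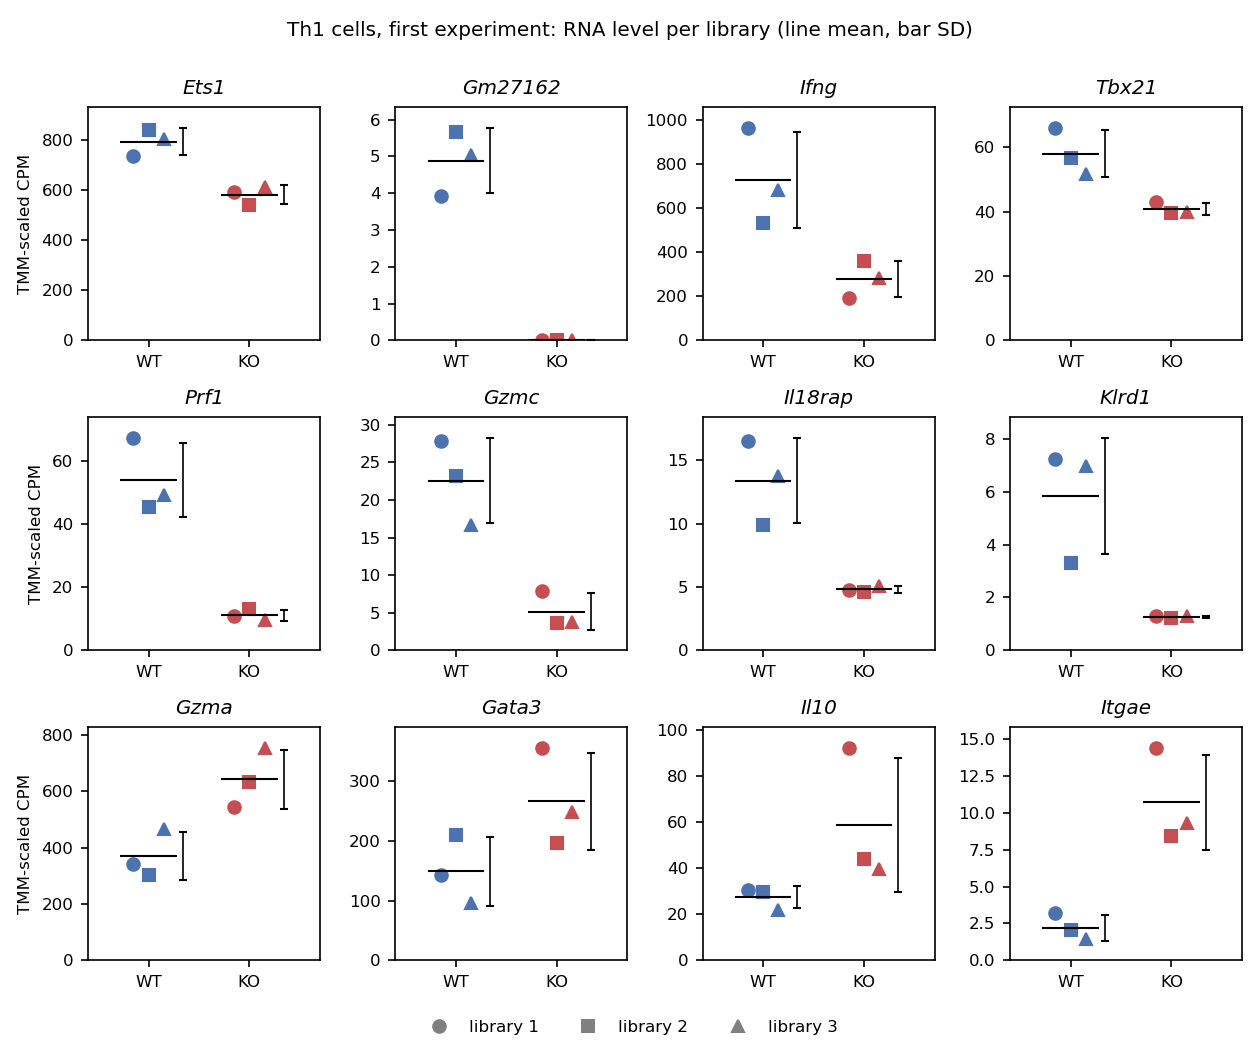
RNA level of 12 genes in each of the 6 Th1 libraries of the first experiment, in TMM-scaled CPM on a linear axis from 0. Symbols mark the library number, the horizontal line is the group mean and the bar beside it the SD (n = 3). Ets1, Gm27162, Ifng, Tbx21, Prf1, Gzmc, Il18rap and Klrd1 lay lower in every KO library than in any WT library, Gzma, Il10 and Itgae lay higher, and Gata3 overlapped.

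The interferon gamma gene fell while most of the Th1 control genes were not called. Ifng (chromosome 10, 118441046 to 118445892, plus strand) was at 963, 534 and 683 CPM in WT and 192, 359 and 285 CPM in KO libraries. Every KO library lay below every WT library, and the log2 fold change was -1.38 (SE 0.19, adjusted p = 0.00061), from -1.60 to -1.13 with 1 library left out and called each time. Tbx21 was at 65.9, 56.5 and 51.6 CPM in WT and 43.0, 39.5 and 39.8 CPM in KO libraries. Those groups did not overlap either, but the log2 fold change of -0.51 (SE 0.14) missed the threshold (adjusted p = 0.0557). Of 13 alternatives Tbx21 passed in 6, among them DESeq2 (adjusted p = 0.0216) and the 6 Th1 libraries fitted alone (0.0126), and missed in 7, with RLE factors, with counts without strand and with each library but WT library 3 left out (0.052 to 0.302).

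Among 13 Th1 transcription factors 1 rose and 1 fell (2.16% and 1.51% of all genes tested did). Hopx, a small homeodomain protein found in effector T cells, fell from 54.3, 41.7 and 48.5 CPM to 32.5, 33.99 and 25.9 CPM (log2 fold change -0.65, adjusted p = 0.00419), a call lost when counts were taken without strand (0.0637). Id2, an inhibitor of E proteins, rose from 128 to 155 CPM in WT to 176 to 266 CPM in KO (adjusted p = 0.0148), a call lost without WT library 1, WT library 3 or KO library 1 (0.0502 to 0.0654). Stat4 had a log2 fold change of -0.46 (adjusted p = 0.0627), and Runx3, which works with T-bet at Ifng, had -0.08 (0.767). The median log2 fold change of the 13 was -0.08.

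Among the Th1 receptor genes Il18rap fell. Il18rap, the signalling chain of the IL-18 receptor, was at 16.5, 9.87 and 13.7 CPM in WT and 4.79, 4.57 and 5.11 CPM in KO libraries, with no overlap (log2 fold change -1.47, SE 0.24, adjusted p = 0.00176). Its partner chain Il18r1 had a log2 fold change of -0.85 that missed the threshold, with overlapping groups (0.0908). The IL-12 receptor chains Il12rb1 and Il12rb2 had log2 fold changes of -0.09 and -0.25 (adjusted p = 0.589 and 0.413).

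Among 14 Th1 effector products 3 fell and none rose (1.51% and 2.16% of all genes tested did). The median log2 fold change of the 14 was -0.32. Besides Ifng the 3 that fell were Ccl3, an inflammatory chemokine, and Fasl, the ligand of the death receptor Fas. Ccl3 was at 42.6, 32.8 and 24.4 CPM in WT and 22.5, 14.7 and 11.7 CPM in KO libraries (log2 fold change -1.03, adjusted p = 0.00626), and was not called without WT library 1 (0.0576). Fasl was at 14.96, 10.2 and 13.8 CPM and 7.24, 8.32 and 6.11 CPM (log2 fold change -0.85, adjusted p = 0.0328), and was not called without WT library 1, WT library 3, KO library 1 or KO library 3 (0.0764 to 0.182). Neither overlapped between the groups. Tnf and Lta, the tumour necrosis factor genes, had log2 fold changes of -0.30 and -0.38 (0.162 and 0.104). Of 27 genes that respond to interferon gamma, Gbp8 rose (log2 fold change 0.46, adjusted p = 0.00626), none fell, and the median was 0.02. These counts, too, stand beside 2.16% higher and 1.51% lower over all genes tested.

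Among the 15 lower genes named by size of change, the cytotoxic gene Prf1 fell most. It encodes perforin, the pore-forming protein of killer cell granules. Prf1 was at 67.3, 45.4 and 49.4 CPM in WT and at 10.9, 12.99 and 9.61 CPM in KO libraries (log2 fold change -2.27, SE 0.24, adjusted p = 4.3e-05). The highest KO library thus lay far below the lowest WT library, and genes were named by size only where the groups did not overlap. Gzmc, a granzyme, was at 27.9, 23.1 and 16.7 CPM in WT and 7.94, 3.65 and 3.80 CPM in KO libraries (log2 fold change -2.15, SE 0.29, adjusted p = 0.000479). Gzma, the granzyme A gene, moved the other way: it was at 342, 304 and 464 CPM in WT and 544, 631 and 752 CPM in KO libraries (log2 fold change 0.80, SE 0.16, adjusted p = 0.00943), without overlap. That call was lost without WT library 1 (0.0617).

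Of 18 cytotoxic granule genes tested, 5 fell and 1 rose (1.51% and 2.16% of all genes tested did). The median log2 fold change of the 18 was -0.54. Ctsw, a cysteine protease of cytotoxic cells, fell (log2 fold change -1.04, adjusted p = 0.000659), as did Serpinb9, an inhibitor of granzyme B (-0.85, 0.00574). Serpinb6b also fell (-0.44, 0.04), but its groups overlapped and the call was lost without WT library 1, WT library 3, KO library 1 or KO library 3 (0.0571 to 0.226). The abundant Gzmb ranged from 1833 to 2490.2 CPM in WT and from 1272 to 1549 CPM in KO libraries, with no overlap, but did not pass (log2 fold change -0.65, adjusted p = 0.139). Some granzymes have close copies and a read may fit several of them, which makes the values of Gzmc and its neighbours uncertain.

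The proximal promoters of these genes are shown because Ets factors bind DNA at the core GGAA. Each line holds the 250 bases before the RefSeq start of the gene (GRCm38.p6, 5′ to 3′ on the strand of the gene), in lower case with GGAA, or TTCC where the core lies on the other strand, in capitals. Ifng is at chr10:118440796-118441045 (plus strand), Prf1 at chr10:61297586-61297835 (plus), Gzmc at chr14:56234658-56234907 (minus) and Gzma at chr13:113100982-113101231 (minus).
Ifng: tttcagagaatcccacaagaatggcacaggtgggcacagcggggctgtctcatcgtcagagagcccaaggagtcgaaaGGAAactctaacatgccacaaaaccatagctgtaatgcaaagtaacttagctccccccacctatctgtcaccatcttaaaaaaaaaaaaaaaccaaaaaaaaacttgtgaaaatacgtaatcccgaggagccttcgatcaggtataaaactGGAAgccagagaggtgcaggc
Prf1: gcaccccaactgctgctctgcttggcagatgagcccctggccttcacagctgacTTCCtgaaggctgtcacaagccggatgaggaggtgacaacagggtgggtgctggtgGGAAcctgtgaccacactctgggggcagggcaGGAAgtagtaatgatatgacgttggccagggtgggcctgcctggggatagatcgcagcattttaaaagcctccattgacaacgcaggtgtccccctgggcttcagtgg
Gzmc: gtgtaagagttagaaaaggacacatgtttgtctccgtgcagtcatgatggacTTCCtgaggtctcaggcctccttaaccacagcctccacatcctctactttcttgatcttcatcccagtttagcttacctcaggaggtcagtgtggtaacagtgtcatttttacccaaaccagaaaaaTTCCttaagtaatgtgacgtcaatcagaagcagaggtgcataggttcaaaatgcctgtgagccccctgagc
Gzma: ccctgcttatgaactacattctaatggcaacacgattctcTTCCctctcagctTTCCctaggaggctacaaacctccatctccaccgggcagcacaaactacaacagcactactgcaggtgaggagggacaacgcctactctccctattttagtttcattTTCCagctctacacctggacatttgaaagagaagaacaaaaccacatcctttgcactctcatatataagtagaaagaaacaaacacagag
The windows held 2, 3, 2 and 3 cores in that order. A core is common in such windows: 93.45% of 32851 promoter windows held at least 1 on either strand. The longer match GGAAGT, which contains the core, occurred 2 times in the window of Prf1, 1 time in that of Gzmc and not in those of Ifng and Gzma. It was in 20.48% of the windows of genes that fell (210 windows of 154 genes), in 14.23% of those of genes that rose (281 windows of 211 genes) and in 23.83% of the windows of all genes tested. These matches describe letters in a window and not bound sites.

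Of 8 genes tested in the list of receptors shared with natural killer cells, 3 fell, none rose and 5 were not called. Over all genes tested 1.51% fell and 2.16% rose. Klrd1, the CD94 chain, was at 7.21, 3.29 and 6.96 CPM in WT and 1.28, 1.22 and 1.30 CPM in KO libraries (log2 fold change -2.19, SE 0.34, adjusted p = 0.00121). Klrc1, the inhibitory partner NKG2A, was at 15.5, 7.49 and 20.3 CPM and 4.21, 4.67 and 4.81 CPM (-1.67, SE 0.29, adjusted p = 0.00296). Klrk1, the activating receptor NKG2D, was at 17.8, 8.73 and 18.96 CPM and 4.56, 5.89 and 6.91 CPM (-1.39, adjusted p = 0.00491). WT library 2 was the lowest of the WT libraries for all 3, and none overlapped between groups. For Klrd1 and Klrc1, which were named by size, lack of overlap was a condition. All 3 were also called without KO library 1 and without WT library 1.

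Constant-region genes of the gamma-delta T cell receptor fell beside them. Of 5 gamma-delta markers tested, 4 fell, none rose and 1 was not called, with a log2 fold change of 0.48. Over all genes tested 1.51% fell and 2.16% rose. Trdc, the delta constant region, was at 8.91, 7.83 and 15.4 CPM in WT and 3.97, 1.52 and 2.30 CPM in KO libraries (log2 fold change -2.07, SE 0.33, adjusted p = 0.00155). Tcrg-C1, Tcrg-C2 and Tcrg-C4, which are similar in sequence, fell too (-2.25, -1.81 and -1.86). Those 3 calls were each lost without 1 or more libraries: Tcrg-C1 without WT library 1 (adjusted p = 0.0573), Tcrg-C2 without WT library 1 or KO library 3 (0.0506 and 0.0503, with a log2 fold change of -2.49 without KO library 1), Tcrg-C4 without WT library 3 or KO library 2 (0.0563 to 0.0683). Over the 10 listed gamma-delta genes that the tables hold, the summed level was 20.98 to 33.6 CPM in WT and 5.18 to 10.5 CPM in KO libraries. None of the 10 was at 0 in all 6 libraries, and 3 had fewer than 10 counts over the 6. Fewer cells of a type and less RNA per cell cannot be told apart in these bulk samples. The part of gamma-delta cells in the fall of the cytotoxic and natural killer receptor genes was not tested.

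Markers of other cells were counted too. The 11 natural killer cell markers summed to 310.3 to 469.6 CPM in WT and 550.5 to 756.3 CPM in KO libraries, nearly all of it Gzma, which rose as given above, and the part of natural killer cells in that rise was not tested. Of the other 10, Eomes and Itga2 were tested and neither was called. Ncr1, Klrb1c and Tyrobp, which are also on the natural killer list, had 0 to 2 counts in every Th1 library. Cd8a had 4 to 13 counts a library, while Cd8b1 rose from 42, 47 and 38 counts to 78, 59 and 75 counts (log2 fold change 0.75, adjusted p = 0.0422). DESeq2 did not call Cd8b1 (0.0514), nor did edgeR without WT library 1, WT library 3, KO library 1 or KO library 3 (0.0902 to 0.203). The 9 B cell markers summed to 33.6 to 45.9 CPM in WT and 39.3 to 56.5 CPM in KO libraries. None of the 8 tested was called in edgeR or DESeq2, 1 was at an unadjusted p under 0.05, and their median log2 fold change was 0.54. The myeloid markers Lyz2, C1qa, S100a8 and S100a9 and the dendritic cell markers Clec9a, Siglech and Xcr1 were at 0 in all 6. The 8 dendritic cell markers summed to 135 to 157 CPM in WT and 104 to 132 CPM in KO libraries, nearly all of it Batf3, which T cells also express. Markers of T cells as such (Cd3e, Cd4, Trac and others, 10 in all) summed to 2127 to 2285 CPM in WT and 2089 to 2183 CPM in KO libraries.

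Other genes that fell most were of varied kinds. App, the amyloid precursor protein gene, was at 10.5, 12.7 and 13.1 CPM in WT and 2.92, 4.06 and 2.30 CPM in KO libraries (log2 fold change -1.96, SE 0.21, adjusted p = 4.3e-05). Muc13, a membrane-bound mucin, was at 15.7, 15.99 and 14.1 CPM and 5.84, 6.19 and 6.01 CPM (-1.34, SE 0.13, adjusted p = 2.86e-05). Within each genotype the 3 libraries lay close together for Muc13, which was chosen for mention after its values were seen. Xdh, the xanthine dehydrogenase of purine breakdown, was at 24.3, 20.2 and 17.4 CPM and 5.02, 7.41 and 8.91 CPM (-1.52, SE 0.19, adjusted p = 0.000203). Sema3b, a secreted semaphorin, had a log2 fold change of -2.16, Emilin1, an extracellular matrix protein, -1.55, the flippase gene Atp8b4 -1.59 and the secretory kinase-like gene Fam20a -1.48, each called with every library left out in turn.

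The calls of 2 further genes depended on single libraries. Slc1a2, a glutamate transporter, was at 11.1, 4.31 and 11.6 CPM in WT and 0.350, 3.65 and 4.00 CPM in KO libraries (log2 fold change -1.72, adjusted p = 0.0276). It was not called without WT library 1, WT library 3 or KO library 1 (0.0581 to 0.141), nor in DESeq2 (0.167). Pcsk1, a prohormone convertase, had a log2 fold change of -1.42 (adjusted p = 0.029) and was not called without WT library 1, WT library 2, KO library 1 or KO library 3 (0.0534 to 0.13).

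**Figure D3:**
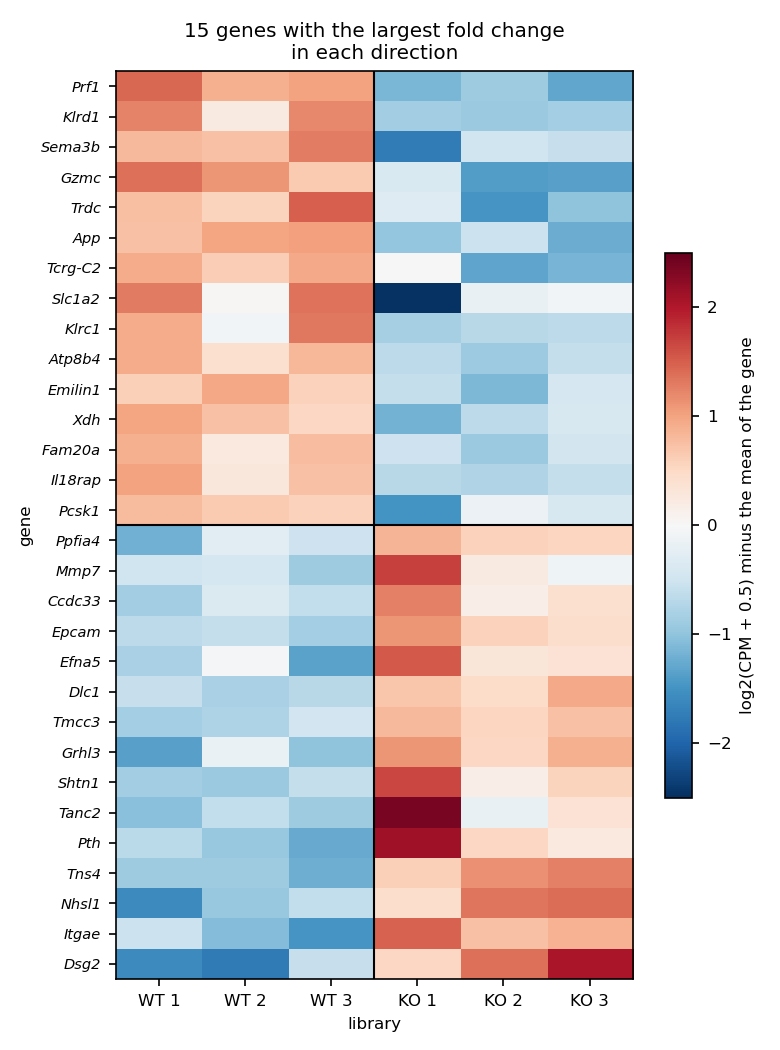
The 15 genes with the largest fold change in each direction (adjusted p under 0.05, no overlap between groups, at least 5 CPM in the higher group, named genes only), by library. Colour is log2(CPM + 0.5) minus the mean of the gene over the 6 libraries, red above and blue below it. Within the rows of Tanc2 and Pth KO library 1 is the reddest, and within that of Slc1a2 the bluest.

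Some genes of the Th2 fate rose in KO Th1 cells, and KO library 1 was the highest library for Gata3, Maf, Il4, Il10 and Il13. Of 13 Th2 transcription factors 5 rose and none fell (2.16% and 1.51% of all genes tested did). The median log2 fold change of the 13 was 0.26. Gata3, the main Th2 factor, was at 143, 211 and 95.4 CPM in WT and 355, 196 and 248 CPM in KO libraries (log2 fold change 0.84, SE 0.20, adjusted p = 0.0227). The groups overlapped, and the call was lost in DESeq2 (0.0872) and without WT library 1, WT library 3 or KO library 1 (0.0603 to 0.131). Maf, a factor that drives Il4 and Il10, was at 59.7, 83.4 and 57.5 CPM and 209, 81.9 and 120.1 CPM (1.03, adjusted p = 0.0145), with overlap, and was not called without WT library 1 or KO library 1 (0.0646 to 0.0873). Pparg and Bhlhe41 held with every library left out: Pparg rose from 13.7, 12.5 and 14.4 CPM to 27.5, 19.6 and 21.4 CPM (0.75, adjusted p = 0.00205) and Bhlhe41 from 0.424, 0.454 and 1.24 CPM to 4.09, 2.94 and 4.71 CPM (2.40, or 3.11 without WT library 3, adjusted p = 0.000659). The fifth was Nfil3 (0.26, adjusted p = 0.0306), not called without WT library 1, WT library 3, KO library 1 or KO library 3 (0.0727 to 0.15).

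Of 12 Th2 cytokines and products 3 rose and none fell (2.16% and 1.51% of all genes tested did). The median log2 fold change of the 12 was 0.41. Il10, a cytokine that dampens inflammation, was at 30.7, 29.8 and 22.1 CPM in WT and 92.2, 44.1 and 39.7 CPM in KO libraries (log2 fold change 1.09, SE 0.23, adjusted p = 0.0126). It was called with every library left out, although the log2 fold change was 0.61 without KO library 1. Il4 was at 8.70, 13.2 and 7.81 CPM and 26.1, 14.2 and 16.2 CPM (0.93, adjusted p = 0.029), and was not called without WT library 1, WT library 3 or KO library 1 (0.0927 to 0.166). Il13 was at 124, 119 and 66.3 CPM and 377, 156 and 138 CPM (1.11, adjusted p = 0.0243). Its log2 fold change was 0.51 without KO library 1, it was not called without WT library 1, WT library 3 or KO library 1 (0.0521 to 0.139), and it was not called in DESeq2 (0.105). Il5 had a log2 fold change of 1.11 with overlapping groups and missed the threshold (adjusted p = 0.129).

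Of 11 Th2 receptor genes 2 rose and 1 fell (2.16% and 1.51% of all genes tested did). Ccr8, a chemokine receptor of Th2 cells, was at 15.1, 17.01 and 7.81 CPM in WT and 34.9, 24.6 and 26.5 CPM in KO libraries (log2 fold change 1.12, SE 0.19, adjusted p = 0.00288), without overlap and called with every library left out. Htr1b, a serotonin receptor gene, rose at under 4 CPM (1.53, adjusted p = 0.00975), a call lost when counts were taken without strand (0.0708). Ptgir, the prostacyclin receptor, fell (-0.51, adjusted p = 0.0257), a call lost without WT library 1, WT library 2, KO library 2 or KO library 3 (0.0531 to 0.17). In the list of 14 chemokine receptors Cxcr4 rose beside Ccr8 (0.55, adjusted p = 0.0211), and Gpr183 fell (-0.72, adjusted p = 0.0498). Cxcr4 was not called without WT library 1, WT library 2 or KO library 1 (0.062 to 0.115), and Gpr183 not with any WT library, KO library 1 or KO library 2 left out (0.0619 to 0.21).

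Itgae, the CD103 integrin chain that binds E-cadherin and is induced by TGF-beta, rose about as much as Prf1 fell. It was at 3.18, 2.04 and 1.43 CPM in WT and 14.4, 8.42 and 9.31 CPM in KO libraries (log2 fold change 2.27, SE 0.26, adjusted p = 6.45e-05). Its partner chain Itgb7 was at 132, 166 and 162 CPM and 186, 201 and 187 CPM (0.32, adjusted p = 0.0427), and was not called without WT library 1 or any 1 KO library (0.0725 to 0.253). Tgfbr1, the signalling receptor of TGF-beta, was at 13.3, 15.99 and 12.8 CPM in WT and 24.9, 24.9 and 23.7 CPM in KO libraries (0.81, SE 0.11, adjusted p = 0.00061). All 3 were without overlap. They were the 3 of 20 genes of the TGF-beta and tissue residency list that rose, none fell, and the median of the 20 was -0.08. Among 21 adhesion genes Itga4, the alpha-4 integrin chain, and the metalloprotease gene Adam19 fell (-1.03 and -1.04, adjusted p = 0.00228 and 0.00651). Beside Itgae and Itgb7, which are on that list too, Itgb3 rose (0.60, 0.0221), with overlapping groups and not without WT library 1, WT library 3, KO library 1 or KO library 3 (0.053 to 0.143).

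Dsg2, Epcam, Tns4, Nhsl1 and Grhl3 rose from low levels. Dsg2, a cadherin of desmosomes, was at 0.318, 0.227 and 1.14 CPM in WT and 3.04, 5.89 and 9.61 CPM in KO libraries (log2 fold change 3.38, SE 0.50, adjusted p = 0.000876), and from 2.91 to 4.44 with 1 library left out, the highest without WT library 3. Epcam, an epithelial adhesion molecule, was at 4.77, 4.99 and 4.10 CPM and 17.3, 11.97 and 10.7 CPM (1.52, SE 0.21, adjusted p = 0.000479). Tns4, a focal adhesion protein, was at 3.29, 3.29 and 2.48 CPM and 10.0, 14.9 and 16.2 CPM (2.19, SE 0.24, adjusted p = 4.3e-05). For these 3 every KO library lay above every WT library, a condition for being named by size. Nhsl1, a protein of the leading edge of cells, had 2.76, 4.65 and 5.91 CPM and 12.8, 24.4 and 25.4 CPM (2.23, SE 0.26, adjusted p = 0.0001), again without overlap. Grhl3, an epithelial transcription factor, had a log2 fold change of 1.84 and was called with every library left out. In WT Th2 libraries Epcam had a mean of 18.3 CPM, against 4.62 CPM in WT Th1 libraries. Dsg2 had 0.646 against 0.563, Nhsl1 4.48 against 4.44, Tns4 1.03 against 3.02 and Grhl3 1.94 against 2.03 CPM. No list of epithelial genes was tested, and Muc13, a mucin of epithelial cells, fell.

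Pth, Tanc2 and Mmp7 rose and were highest in KO library 1. Pth, the parathyroid hormone gene, was at 20.05, 16.6 and 13.2 CPM in WT and 142, 46.6 and 38.6 CPM in KO libraries (log2 fold change 2.18, SE 0.38, adjusted p = 0.00323). Without KO library 1 the log2 fold change was 1.36 and still called. Tanc2, a scaffold protein of synapses, was at 9.76, 13.3 and 10.96 CPM and 109, 17.96 and 26.4 CPM (2.15, adjusted p = 0.0109). It was 0.98 without KO library 1, and it was not called without WT library 1 (0.0662). Mmp7, a matrix metalloprotease, was at 7.96, 8.28 and 5.91 CPM and 38.4, 13.5 and 10.6 CPM (1.48, adjusted p = 0.0227). It was 0.71 without KO library 1, with calls lost there, without WT library 1 and without WT library 3 (0.0685 to 0.133), and in DESeq2 (0.0531). The groups of these 3 did not overlap, a condition for being named by size. Shtn1, Efna5, Tmcc3, Ppfia4 and Ccdc33 rose as well, with log2 fold changes of 1.90, 1.53, 1.59, 1.48 and 1.496. KO library 1 was highest here too: the KO libraries had 14.1, 4.67 and 6.31 CPM for Shtn1 and 46.0, 19.5 and 20.1 CPM for Efna5. For Ccdc33 they had 7.71, 3.35 and 4.00 CPM. Without KO library 1 the log2 fold changes of Shtn1, Efna5 and Ccdc33 were 1.32, 1.02 and 1.07. For Tmcc3 the 3 KO libraries lay close together, at 6.07, 4.97 and 5.71 CPM. Ccdc33 and Ppfia4 lost their calls without WT library 1 (0.0611 and 0.0502), and Ccdc33 also when counts were taken without strand (0.0705). In WT Th2 libraries Tanc2 had a mean of 331 CPM, against 11.3 CPM in WT Th1 libraries. Pth had 154 against 16.6, Shtn1 46.2 against 2.17, Efna5 45.5 against 9.93 and Ccdc33 17.6 against 1.75 CPM. Tmcc3 had 8.30 against 1.83, Ppfia4 4.82 against 1.85 and Mmp7 8.88 against 7.38 CPM. The difference between the WT fates was not tested.

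**Figure D4:**
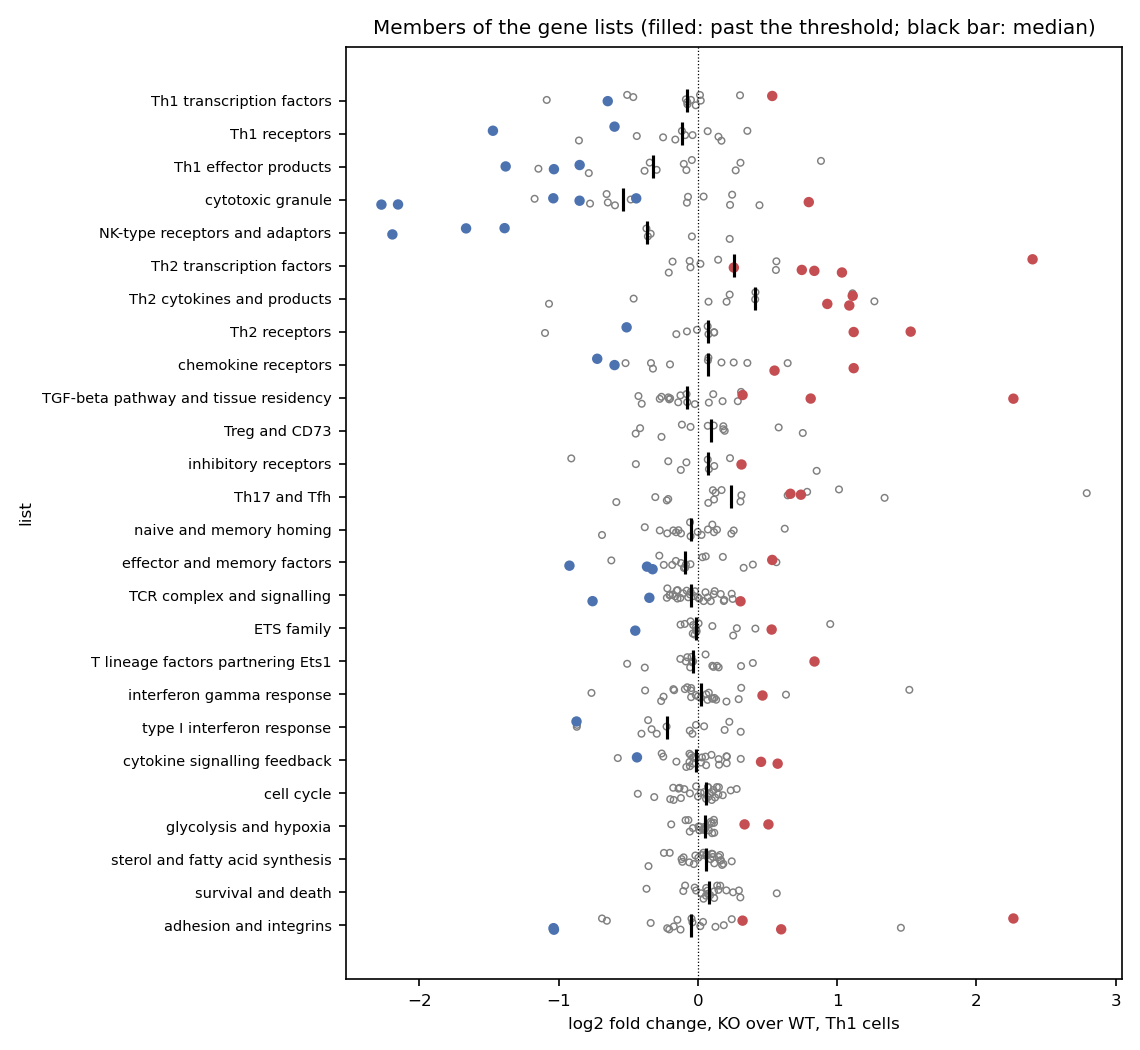
Log2 fold change of KO over WT in Th1 cells for each tested member of 26 gene lists. Filled points passed the threshold (red higher, blue lower), open points did not, and the black bar is the median of the list. The medians lay lowest for the cytotoxic granule genes (-0.54) and highest for the Th2 cytokines (0.41).

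Signalling genes changed singly. Among 33 genes of the T cell receptor complex and its signalling, Cblb, a ubiquitin ligase that restrains activation, fell from 175, 152 and 189.5 CPM to 73.9, 122 and 109 CPM (log2 fold change -0.76, SE 0.13, adjusted p = 0.00292), without overlap. The kinase gene Fyn fell (-0.35, adjusted p = 0.0141; not without WT library 1 or KO library 1, 0.0502 to 0.0787). Cd5, an inhibitory surface protein, rose from 206 to 227 CPM to 264 to 269.7 CPM (0.31, adjusted p = 0.0283), a call that held with WT library 3 left out and not with any other library left out (0.0585 to 0.154). The cytokine receptor genes Il6ra and Il6st, 2 of 18 Th17 and Tfh genes, rose (0.66 and 0.74, adjusted p = 0.00831 and 0.00902), and Il6ra was not called without WT library 1 (0.0583). Among 20 effector and memory factors Nr4a3, an orphan nuclear receptor induced by antigen, fell from 14.96, 14.97 and 18.3 CPM to 7.13, 9.34 and 8.91 CPM (-0.92, adjusted p = 0.00557), Irf8 fell (-0.37, 0.00491) and Id2 rose. Myc fell too (-0.33, 0.0408) but not without WT library 1, WT library 2, KO library 1 or KO library 2 (0.0583 to 0.236).

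Feedback and metabolic genes gave few calls. Of 27 genes of cytokine signalling feedback, the phosphatase genes Dusp6 and Dusp10 rose (0.45 and 0.57, adjusted p = 0.0183 and 0.0314). Dusp6 was not called without WT library 1, WT library 3 or KO library 1 (0.0614 to 0.109), and Dusp10 not without WT library 1, KO library 1 or KO library 3 (0.0675 to 0.181). Spry1 fell (-0.44, 0.0422) but was not called with any library left out (0.0738 to 0.146) or in DESeq2 (0.127). Of 22 glycolysis and hypoxia genes Vegfa rose (0.51, 0.00507), as did Bnip3 (0.33, 0.0173; not without WT library 1 or KO library 1, 0.105 to 0.123). Usp18 fell among 15 type I interferon genes (-0.88, 0.0389), but not in DESeq2 (0.129) or without WT library 1, WT library 2, KO library 1 or KO library 3 (0.123 to 0.184).

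Cell division, lipid synthesis, survival, homing and regulatory T cell genes gave no edgeR call. At an unadjusted p under 0.05 there were 6 of 29 cell cycle genes, 4 of 26 sterol and fatty acid genes, 3 of 22 survival genes, 4 of 19 naive and memory homing genes and 4 of 12 regulatory T cell genes. DESeq2 called Birc3 of the survival list, Ebi3 of the regulatory T cell list and none of the other 3 lists. The cell cycle genes had log2 fold changes of -0.43 to 0.28. Mki67, a marker of dividing cells, was at 898, 831 and 807 CPM in WT and 903, 805 and 958 CPM in KO libraries, which overlapped. Of 18 handling stress genes Ier3 and Hspa1a rose (0.74 and 3.01, adjusted p = 0.00982 and 0.0334), Hspa1a from under 1 CPM and with a near-identical copy. Ier3 was not called without WT library 1 (0.0721), and Hspa1a not without WT library 1, WT library 2 or KO library 3 (0.075 to 0.162), with a log2 fold change of 3.85 without WT library 3. Summed over the 18, stress genes were at 8648 to 9117 CPM in WT and 8326 to 8686 CPM in KO libraries.

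In Th2 cells fewer genes passed, and no gene differed between the fates by the edgeR test of the difference. In Th2 cells 41 genes passed (0.325% of 12616), or 19, 14 and 14 without WT library 1, KO library 2 or KO library 3. The test of the Th1 effect minus the Th2 effect called 0 genes in edgeR (lowest adjusted p = 0.197, with 1225 genes at an unadjusted p under 0.05) and 20 in DESeq2. Of the 272 genes higher in KO Th1 cells, 218 also had a positive log2 fold change in Th2 cells, with a median of 0.13 there against 0.61 in Th1 cells, and 10 were called higher (0.103% of all genes tested were). Of the 190 lower genes, 163 were negative in Th2 cells, with medians of -0.24 and -0.51, and 16 were called lower (0.222% of all were). Over all genes tested, the sign was the same in both fates for 54.35%, against 80.1% of the higher and 85.8% of the lower genes. Gzmc fell in Th2 cells by 2.91 on the log2 scale (adjusted p = 0.00112), and Muc13 by 1.40 (1.07e-05). Prf1 had -1.54 in Th2 cells (0.0927), Gzma 0.79 (0.0537), Gata3 0.06 (0.966) and Il13 0.08 (0.97). Ets1 itself had -0.23 in Th2 cells (SE 0.06, 0.177), against -0.45 in Th1 cells, and the test of that difference did not pass (0.428).

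The second experiment gives untransduced Th1 cells with control libraries of their own, at 1813288 to 6844944 gene counts. Fitted together with the first Th1 libraries, so that both share 1 estimate of the spread, its KO and WT libraries differed in 341 genes (2.69% of 12667), or 88 and 177 without its KO library 1 or 2. Of the 267 tested there among the genes higher in the first experiment, 217 had a positive log2 fold change and 41 were called higher (1.22% of all genes tested there were), while Ckap2l was called lower. Of the 190 lower genes, 173 were negative and 33 were called lower (1.48% of all were). These are 81.3% and 91.1% with the same sign, against 58.66% over all genes tested in both. Ets1 had a log2 fold change of -0.77 there (SE 0.11, adjusted p = 0.000993), against -0.45 in the first experiment. The test of that difference did not pass (0.445). Ifng had a log2 fold change of -1.65 in the second experiment (SE 0.25, adjusted p = 0.00107), Tbx21 -0.65 (0.0142), Prf1 -1.37 (0.0142) and Ccl3 -2.25 (0.000993). Gzma rose by 2.22 (8.88e-05), Ccr8 by 2.45 (0.0155), Tgfbr1 by 0.89 (0.0305) and Epcam by 2.56 (0.0497).

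Several genes called in the first experiment were not called in the second. Gata3 had a log2 fold change of 1.36 there (adjusted p = 0.11), Il10 0.42 (0.824), Itgae 0.57 (SE 0.91, 0.813), Klrd1 -1.18 (0.289), Il18rap -0.82 (0.153) and Gzmc -2.55 (0.0814). For all 6 the test of the difference between the experiments missed the threshold (adjusted p of 0.572 to 0.92). Among the genes named by size, Pcsk1 and Mmp7 changed sign. Pcsk1 had -1.42 in the first experiment and 0.50 in the second, and Mmp7 had 1.48 and -1.50. Neither was called in the second (adjusted p = 0.627 and 0.587), and the test of the difference missed the threshold for both (0.177 and 0.392). In the second experiment Gata3 was at 13.01 and 14.1 CPM in WT and 26.7 and 48.4 CPM in KO libraries, on the scale of that fit. Genes called in the same direction in all 3 comparisons numbered 11: Dsg2, Nhsl1, Tns4 and Dpp4 were higher and Gm27162, App, Muc13, Pear1, Iqsec1, Prnp and Trp53i11 lower.

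The cell cycle genes differed between the experiments. Of 29 tested, none was called in the first experiment, while 14 were called lower in KO cells of the second. The test of the second effect minus the first passed for 8 of the 29, all lower, within a total of 45 genes (0.355% of 12667, with 0.268% lower and 0.0868% higher). Ccna2, cyclin A, had a log2 fold change of 0.18 in the first experiment and -1.14 in the second, a difference of -1.32 (adjusted p = 0.00286). Top2a, the topoisomerase of dividing cells, had 0.14 and -0.63, a difference of -0.77 (0.0193). The count of 45 moved with single libraries: it was 25, 24, 14 and 23 without WT library 1, WT library 2, KO library 2 or KO library 3 of the first experiment, and 70, 5 and 28 without WT library 1, KO library 1 or KO library 2 of the second.

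**Figure D5:**
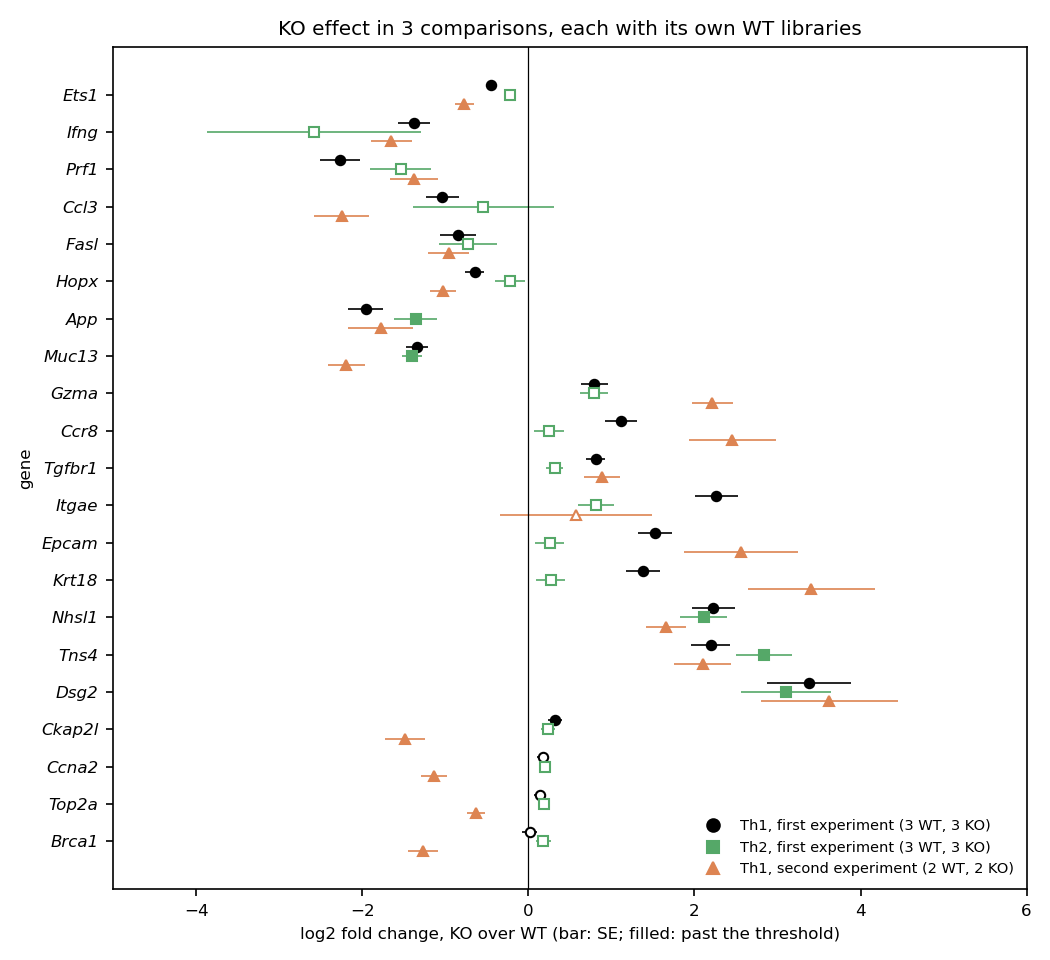
Log2 fold change of KO over WT, with its SE, in Th1 and Th2 cells of the first experiment (3 WT and 3 KO libraries each) and in the untransduced cells of the second experiment (2 WT and 2 KO), for 21 genes. Filled symbols passed the threshold in that comparison. Dsg2, Nhsl1 and Tns4 lay to the right and App and Muc13 to the left in all 3, and Ckap2l, Ccna2, Top2a and Brca1 lay to the left in the second experiment alone.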

How the data were processed

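RNA was sequenced from 6 Th1 libraries of the first experiment, with 6 Th2 and 4 untransduced Th1 libraries for comparison. The authors deposited raw counts per gene, made with STAR 2.5.0a on GRCm38, per the submitters' processing notes, from a stranded total RNA kit, per the labels' protocols. Each table held 45706 genes, of which 45143 matched the GENCODE M21 annotation. The counts of the strand that held 94.2% to 95.0% of stranded gene counts in Th1 libraries were used. Summary lines that name no gene, 65.5% to 70.1% of what was tabulated, were left out. The titles and virus labels of 8 further libraries disagree, and these were not used.

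Counts were fitted with edgeR 4.0.16 in R 4.3.3 (TMM, filterByExpr, quasi-likelihood test, Benjamini-Hochberg over every gene tested, threshold 0.05), with 12 libraries of the first experiment in 1 fit of 4 group means and 10 Th1 libraries of both experiments in another. Every adjusted p is from these fits unless DESeq2 1.42.0 is named. The scripts were tested on simulated counts. The rule for named genes took the 15 largest fold changes in each direction among called, non-overlapping genes of at least 5 CPM, beside Ets1, Fli1, Gm27162, Ifng, Tbx21 and list members. The members and lists were chosen with earlier results of these data known. No pair of libraries within a group was identical or differed by less than sampling noise, and pairs across groups were not compared. Alternatives were DESeq2, RLE factors, no filter, unstranded counts, left-out libraries, the 6 Th1 libraries alone and a replicate block. Results for some genes are not reported here.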

Additional observations from a re-analysis of the deposited data

Results flagged for a closer look

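Between the 2 Th1 experiments, the KO effect differed by the test of the difference (second minus first, log2) for the 10 genes given here, the largest among 45. The effect was higher in the second experiment for Prkar1b, a regulatory subunit of protein kinase A (3.19, adjusted p = 0.0293), the desmosome gene Pkp2 (2.71, 0.0193), the collagen hydroxylase gene P4ha2 (1.78, 0.00913) and the endocytic receptor gene Lrp1 (1.68, 0.00457). It was lower for the mitosis genes Ckap2l (-1.80, 0.00457), Ska2 (-1.61, 0.0408) and Pmf1 (-1.50, 0.0201), the DNA repair gene Rad51ap1 (-1.61, 0.0424), the spliceosomal RNA gene Rnu11 (-1.84, 0.0237) and the predicted gene Gm10800 (-2.37, 0.0193). In the first experiment itself Prkar1b, Pkp2, P4ha2 and Ckap2l rose (1.20, 0.60, 0.49 and 0.32), and the other 6 were not called. No gene differed between Th1 and Th2 cells in the edgeR test of the difference.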

How the results depend on the processing

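The count of 462 genes in Th1 cells was 459 with RLE factors, 516 in DESeq2, 490 with counts without strand and 369 with the 6 Th1 libraries alone. It was 835 without a filter on low counts and 176 to 469 with 1 library left out. For the difference between Th1 and Th2 effects the count of 0 became 20 in DESeq2, 213 without the filter and 0 to 3 with 1 library left out. For the difference between the Th1 experiments the count of 45 became 75, 197 and 5 to 70 in that order. The 41 Th2 genes became 78, 224 and 14 to 50, and the 341 genes of the second experiment became 426, 653 without the filter and 88 to 261. The cause of these shifts was not tested, except that leaving out a library leaves fewer samples. Where a group was left with 1 library, that library was assumed to vary like the other groups.

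T numbers did not pair WT with KO Th1 libraries: same-numbered libraries deviated from their group means with correlations across genes of 0.0223, -0.107 and 0.104, and not every library correlated best with its own number. Between WT Th1 and WT Th2 libraries the correlations were 0.0659, 0.146 and 0.236, each library correlating best with its own number, and between KO Th1 and KO Th2 libraries 0.0664, -0.00433 and 0.0995. With the replicate number as a block (the T number in the first experiment, the B number in the second, whose T numbers are all alike), the Th1 count was 570 in 12 libraries and 361 in the 6 alone, the Th2 count 63, the Th1 minus Th2 count 0, and the count between experiments 37, with 325 in the second.

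For 35 genes (those named by size with Ets1, Fli1, Gm27162, Ifng and Tbx21), of 455 pairs of a gene and an alternative 430 kept their side of the threshold, 19 lost it (7 genes), 6 gained it (Tbx21) and none reversed. Other members of the lists are not counted here, and many lost their calls with 1 library left out, as given beside their values. Depth limits genes of few counts, such as Hspa1a.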
